A study of Mus musculus with 4 samples.

Results

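Saa3-high fibroblasts are fibroblasts of imiquimod-treated mouse back skin in which transcripts of serum amyloid A3 made up at least 20 of every 10000 UMIs (unique molecular identifiers, 1 per captured transcript). A cell was taken as a fibroblast when at least 5 of 8 genes (Pdgfra, Dpt, Lum, Mfap5, Serpinf1, Col1a2, Dcn and Pcolce) had a UMI and when more of them were seen than of 8 keratinocyte genes (Krt5, Krt14, Perp, Dsp, Sfn, Trp63, Pkp1 and Cdh1). There were 2016 such cells among 23455 barcodes. Of these, 1697 came from the library labelled Ovol1 null with imiquimod and 319 from the control library with imiquimod. They were set against Saa3-low fibroblasts of the same library, which passed the same gate with Saa3 below 5 per 10000 (1073 cells in the labelled-null library and 1603 in the control library). Another 237 and 130 fibroblasts lay in between.

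The series holds 4 droplet libraries of 3′-end counts from FACS-sorted cells of CD1 mice aged 7 to 8 weeks, 1 library per group. The groups were Ovol1 null with imiquimod, control with imiquimod, Ovol1 null untreated and control untreated. Treated mice had been given 62.5 mg of cream with 5% imiquimod once on the shaved back. Imiquimod activates TLR7 and is used in mice as a model of psoriasis. Which part of Ovol1, a zinc finger repressor of epithelial cells, is deleted, how many mice went into a library, and what alleles the control mice carried are not given in the sources used here.

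Serum amyloid A proteins are small apolipoproteins of the acute phase. Saa1 and Saa2 are made mainly by the liver, while Saa3 is made in mice by cells outside the liver, such as macrophages, adipocytes and fibroblasts. Inflammatory cytokines such as IL-1, TNF, IL-6 and IL-17 switch these genes on through NF-kB, STAT3 and C/EBP factors, and the same routes act on Lcn2, which encodes the iron-siderophore binding protein lipocalin-2. In skin, fibroblasts of the dermis thereby take part in recruiting and instructing leukocytes beside their role of building collagen matrix.

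The 3 genes given as marks of these cells are shown by the 250 bases before their RefSeq transcription start (build GRCm38.p6), since Saa3 chose the cells described here and Lcn2 and Saa1 were given as marks beside it. Capitals mark letters that match a C/EBP-type motif (TTGC, any 2 bases, AA), a kB-type motif (GGG, any 5 bases, CC) or an interferon-response-type motif (GAAA, any 2 bases, GAAA), read on both strands. Saa3 lies on the minus strand at chr7:46711998-46715700 and Saa1 on the minus strand at chr7:46740497-46742980. Lcn2 lies on the minus strand at chr2:32384633-32388252 (GENCODE M21, the same build).
Saa3, chr7:46715677-46715926, minus strand: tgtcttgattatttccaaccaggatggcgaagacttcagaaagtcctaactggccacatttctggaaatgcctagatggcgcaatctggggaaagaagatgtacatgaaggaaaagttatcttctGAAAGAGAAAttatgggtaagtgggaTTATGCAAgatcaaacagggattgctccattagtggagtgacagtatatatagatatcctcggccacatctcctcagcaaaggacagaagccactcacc
Saa1, chr7:46742981-46743230, minus strand: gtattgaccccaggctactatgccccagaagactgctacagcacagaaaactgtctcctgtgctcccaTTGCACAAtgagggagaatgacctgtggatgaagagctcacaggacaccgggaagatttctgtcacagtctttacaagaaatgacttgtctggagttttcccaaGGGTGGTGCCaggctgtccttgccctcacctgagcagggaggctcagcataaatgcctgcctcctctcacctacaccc
Lcn2, chr2:32387740-32387989, minus strand: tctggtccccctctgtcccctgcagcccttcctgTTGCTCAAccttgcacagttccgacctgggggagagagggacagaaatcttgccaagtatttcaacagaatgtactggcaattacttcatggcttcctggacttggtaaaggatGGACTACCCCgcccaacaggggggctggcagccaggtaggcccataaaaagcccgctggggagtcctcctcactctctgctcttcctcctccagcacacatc
The C/EBP-type match starts 99 bases before the start of Saa3, 182 bases before that of Saa1 and 216 bases before that of Lcn2. An interferon-response-type match starts 125 bases before the start of Saa3. The kB-type match starts 78 bases before the start of Saa1 and 102 bases before that of Lcn2, and the window of Saa3 holds none of these letters. Over 32851 mouse promoter windows of the same length, 9.56% hold the C/EBP-type, 45.8% the kB-type and 2.98% the interferon-response-type letters. A match is a description of letters, not a site.

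The imiquimod libraries differed in depth. Saa3-high fibroblasts had a median of 8635 UMIs and 2211 genes in the labelled-null library, against 4788 UMIs and 1555 genes in the control library. Saa3-low fibroblasts were close to them within each library, with medians of 7753 and 4542 UMIs. Mitochondrial UMIs had medians of 1.89% and 2.104% in Saa3-high cells, and 2.06% and 2.24% in Saa3-low cells. Any pair of libraries shared 37 to 47 barcode sequences. Ovol1 was not lower in the libraries labelled null: in cells of a keratinocyte gate it stood at 91.4 CPM (UMIs per 1000000 UMIs of the cells summed) in labelled-null imiquimod against 35.9 CPM in control imiquimod, and at 41.2 CPM in labelled-null untreated against 27.95 CPM in control untreated. Since 3′ tags outside a deleted part check nothing, the genotype is taken from the labels alone. With 1 library per group no difference between libraries has a replicate check. All intervals are 95% intervals of counting error only.

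Saa3-high cells made up 56.4% of gate fibroblasts in the labelled-null imiquimod library (95% interval 54.6 to 58.2%, 1697 of 3007), against 15.5% in the control imiquimod library (14.0 to 17.2%, 319 of 2052). In the untreated libraries 8 of 1873 gate fibroblasts (0.427%) labelled null and 5 of 3348 control ones (0.149%) passed the same threshold. The level of Saa3 inside the class was also unlike between the libraries: its median was 228 per 10000 in labelled-null and 59.4 per 10000 in control Saa3-high cells, with maxima of 1864 and 1059. Saa3 alone took 3.08% of all UMIs of the labelled-null Saa3-high cells and 0.986% of those of the control ones. These values chose the cells and are given as a description. The lowest members stood at 20.3 and 20.0 per 10000, and the highest cells outside at 19.9 and 19.8.

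Saa3 was spread differently in the imiquimod libraries. In the labelled-null library 553 cells lay between 2 and 5 per 10000, 216 between 50 and 100, 351 between 100 and 200 and 448 between 200 and 400. Next to the threshold lay 35 cells between 15 and 20 and 44 between 20 and 25. These ranges widen upwards, so per unit of Saa3 the range from 200 to 400 held fewer cells than those next to the threshold. In the control library 1271 of 2052 fibroblasts had no Saa3 UMI, and the most filled range above the threshold was 50 to 100, with 101 cells. Saa3 was also read in keratinocyte-gate cells, where free RNA in the droplets and transcripts of the cells themselves cannot be told apart. In labelled-null imiquimod 90.0% of them had a Saa3 UMI, at a median of 1.95 per 10000 and a summed level of 507 CPM. The Saa3-low fibroblasts there had a median of 2.05 and a summed level of 209 CPM. In control imiquimod 22.9% of keratinocytes had a Saa3 UMI, and both medians were 0. The summed level was 50.8 CPM in keratinocytes and 51.7 CPM in Saa3-low fibroblasts. Median depths were 13793 UMIs in those labelled-null keratinocytes and 5832.5 in the control ones. The low level of Saa3-low fibroblasts is set by the rule that chose them. Of the keratinocyte-gate cells, 33 of 1743 labelled-null and 3 of 2758 control ones passed 20 per 10000, and they are included in the summed levels.

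**Figure D1:**
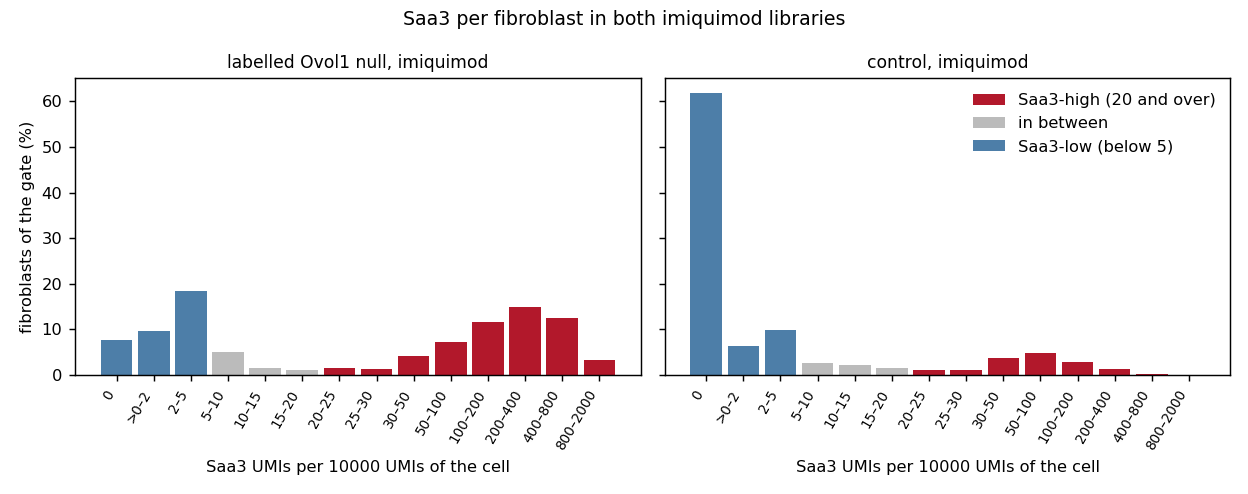
Share of gate fibroblasts (y axis, percent) in each range of Saa3 UMIs per 10000 UMIs of the cell (x axis, unequal ranges), for the labelled Ovol1 null imiquimod library (left, 3007 cells) and the control imiquimod library (right, 2052 cells). Red bars are Saa3-high, grey in-between and blue Saa3-low cells; on these unequal ranges the labelled-null cells are most numerous at 2 to 5 and at 200 to 400, while 61.9% of control cells have no Saa3 UMI.

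Lcn2, the second mark, was higher in the Saa3-high class of both libraries. It stood at 1052 CPM (1036 to 1069) in Saa3-high against 440 CPM (426 to 454) in Saa3-low cells of the labelled-null library, and at 78.9 CPM (65.5 to 94.3) against 32.4 CPM (28.4 to 36.7) in the control library. The ratios were 2.39 (2.31 to 2.48) and 2.44 (1.94 to 3.04), with overlapping intervals, while the level was 13.3-fold higher in labelled-null Saa3-high cells than in control ones (11.1 to 16.1). Keratinocyte-gate cells held 222 and 20.3 CPM of Lcn2, and untreated gate fibroblasts 1.77 CPM (labelled null) and 2.18 CPM (control). After each cell was thinned to 1400 UMIs, 42.5% of Saa3-high against 25.2% of Saa3-low labelled-null cells still had a Lcn2 UMI, and 6.27% against 2.62% of control cells. Unthinned, these shares were 61.9% against 44.5% and 13.5% against 6.43%.

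Saa1, the third mark, was higher in the Saa3-high class by summed level in the labelled-null library alone. It was 436 CPM in Saa3-high against 219 CPM in Saa3-low cells labelled null (ratio 1.99, 1.89 to 2.101), but 11.1 CPM (6.46 to 17.8) against 16.2 CPM (13.4 to 19.4) in control cells (ratio 0.685, 0.386 to 1.14). The share of cells with a Saa1 UMI ran the other way there, at 5.02% of control Saa3-high cells (16 of 319, with 17 UMIs) against 2.25% of Saa3-low cells (36 of 1603), of which 1 cell gave 21 of the 121 UMIs, so no order is read from either. Labelled null, the shares were 27.2% against 12.8%. Its neighbour Saa2 stood at 55.4 CPM in Saa3-high against 31.8 CPM in Saa3-low cells labelled null, and at 9.79 against 6.16 CPM in control cells. Saa1 and Saa2 are near-identical copies, so how reads were split between them is uncertain. Of the given marks, Lcn2 was thus higher by summed level in both libraries and Saa1 in the labelled-null library.

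Few other genes of the acute phase went along. Of the 14 listed, 13 were measured in the labelled-null library (at least 20 UMIs over both classes), and 4 were higher in Saa3-high cells: Lcn2, Saa1, Saa2 and Ptx3, a soluble pattern-recognition pentraxin (16.5 against 6.19 CPM). In the control library 10 were measured, with Lcn2 higher and Steap4, a metalloreductase, lower (16.3 against 31.6 CPM). Higher or lower here and below means a ratio of at least 1.5 with its interval on one side of 1. Of all measured genes 1.15% were higher and 5.15% lower labelled null, and 0.998% and 3.83% in the control library. Serpina3n, a serine protease inhibitor and the most abundant acute-phase gene of these cells apart from Saa3, stayed below that size at 3074 against 2691 CPM (labelled null) and 2037 against 1565 CPM (control). It stood at 299 and 350 CPM in untreated fibroblasts. Lbp, which hands endotoxin to CD14, was 339 against 316 CPM and 373 against 275 CPM.

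Over all genes few passed that size upwards. In the labelled-null library 133 of 11592 measured genes (1.15%) were higher and 597 (5.15%) lower in Saa3-high than in Saa3-low cells; in the control library 106 of 10621 (0.998%) were higher and 407 (3.83%) lower. In both libraries at once, 20 of 10466 genes (0.191%) were higher, Saa3 among them, and 68 (0.65%) lower. The median log2 ratio of all measured genes was -0.11 in the labelled-null and -0.09 in the control library. With TMM scaling in place of class totals it was -0.0022 and 0.03, and the split of calls moved to 215 higher and 425 lower (33.6% higher, against 18.2% before) and to 195 higher and 244 lower (44.4%, against 20.7%). Since the cells were chosen by Saa3 and share their library with the Saa3-low cells, these counts are descriptions with no test.

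Lcn2, Plac8, Cxcl13, Gpx3 and Pltp had ratios near or above 2 in both libraries. Plac8, a small cysteine-rich protein, was 168 CPM (161 to 175) in Saa3-high against 39.6 CPM (35.5 to 44.1) in Saa3-low cells labelled null, and 77.0 CPM (63.7 to 92.2) against 11.9 CPM (9.57 to 14.7) in control cells. Its ratios were 4.24 and 6.46. These transcripts came from few cells: 262 of 1697 Saa3-high against 73 of 1073 Saa3-low cells labelled null had a Plac8 UMI, and 20 of 319 against 30 of 1603 control cells, and in the control library 1 cell gave 39 of the 118 UMIs. Untreated gate fibroblasts held 0.422 CPM (labelled null) and 3.76 CPM (control).

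Cxcl13, the chemokine that draws B cells through CXCR5, was 37.2 CPM in Saa3-high against 3.69 CPM in Saa3-low cells labelled null (ratio 10.1, 7.02 to 15.0) and 30.01 against 8.43 CPM in control cells (ratio 3.56, 2.38 to 5.29). It too was a signal of rare cells. A UMI of it was seen in 75 Saa3-high cells (4.42%) against 10 Saa3-low cells (0.932%) labelled null, but in nearly the same share of control cells, 6 (1.88%) against 26 (1.62%). A single cell gave 145 of 552 UMIs in the labelled-null class and another 25 of 46 in the control class. Without the cell richest in it in each class, the log2 ratio was 1.37 in the control library and stayed past the size set.

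Gpx3, a secreted selenium-containing glutathione peroxidase, was 138 CPM (132 to 144) in Saa3-high against 45.3 CPM (40.9 to 50.1) in Saa3-low cells labelled null. In control cells it was 359 CPM (330 to 391) against 110 CPM (103 to 118). The ratios were 3.03 and 3.26. A Gpx3 UMI was seen in a minority of cells, 19.9% against 8.85% labelled null and 24.5% against 11.7% in the control library. Untreated fibroblasts held 185 and 239 CPM, so that the labelled-null Saa3-high cells were below, and the control Saa3-high cells above, the untreated level of their genotype label. Pltp, which moves phospholipids between lipoproteins, was 87.2 against 39.7 CPM (ratio 2.19, 1.94 to 2.48) and 110 against 57.6 CPM (ratio 1.92, 1.59 to 2.29), with 113 and 148 CPM in untreated fibroblasts. With Saa3-low cells weighted to the subset make-up of Saa3-high cells, the control log2 ratio of Pltp was 0.54 and no longer past the size set. Among cells with at least 6 of the fibroblast genes and no keratinocyte gene, 59 and 49 cells labelled null and 7 and 37 control cells, the log2 ratio of Gpx3 turned to -0.47 and -2.39.

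The other genes higher in both ranged more widely in level. Enzymes at the cell surface or secreted were Ace, which makes angiotensin II (19.1 against 8.45 and 20.2 against 7.90 CPM), Ggt5, which acts on leukotriene C4 and glutathione (21.9 against 9.76 and 18.3 against 8.70 CPM), and Pla1a, a phospholipase for phosphatidylserine (128 against 84.4 and 49.6 against 27.4 CPM). Sfrp1, a secreted Wnt antagonist, was 27.6 against 15.6 CPM and 46.3 against 17.1 CPM. Matrix genes were Ogn, a small proteoglycan (48.2 against 24.4 and 109 against 70.6 CPM), Col14a1, a collagen at fibril surfaces (10.0 against 5.83 and 10.4 against 4.82 CPM), and Cthrc1 (3.91 against 2.26 and 8.48 against 3.48 CPM). Mnda, an interferon-inducible nuclear protein, was 165 against 92.1 and 243 against 159 CPM. In each pair the Saa3-high value comes first, labelled-null cells before control cells. Anxa3, Opcml, Tmeff2, 4930486L24Rik, Abhd11os and Figf, a vascular endothelial growth factor, complete the 20. Of the genes besides Saa3, 11 had a promoter window in the RefSeq table. Of these genes 4 held the C/EBP-type, 6 the kB-type and 0 the interferon-response-type letters. Of the genes lower in both, 48 had a window, and 4, 37 and 2 of these genes held them. A gene counts here when any of its windows matches, so these counts and the shares over 32851 single windows are unlike measures.

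**Figure D2:**
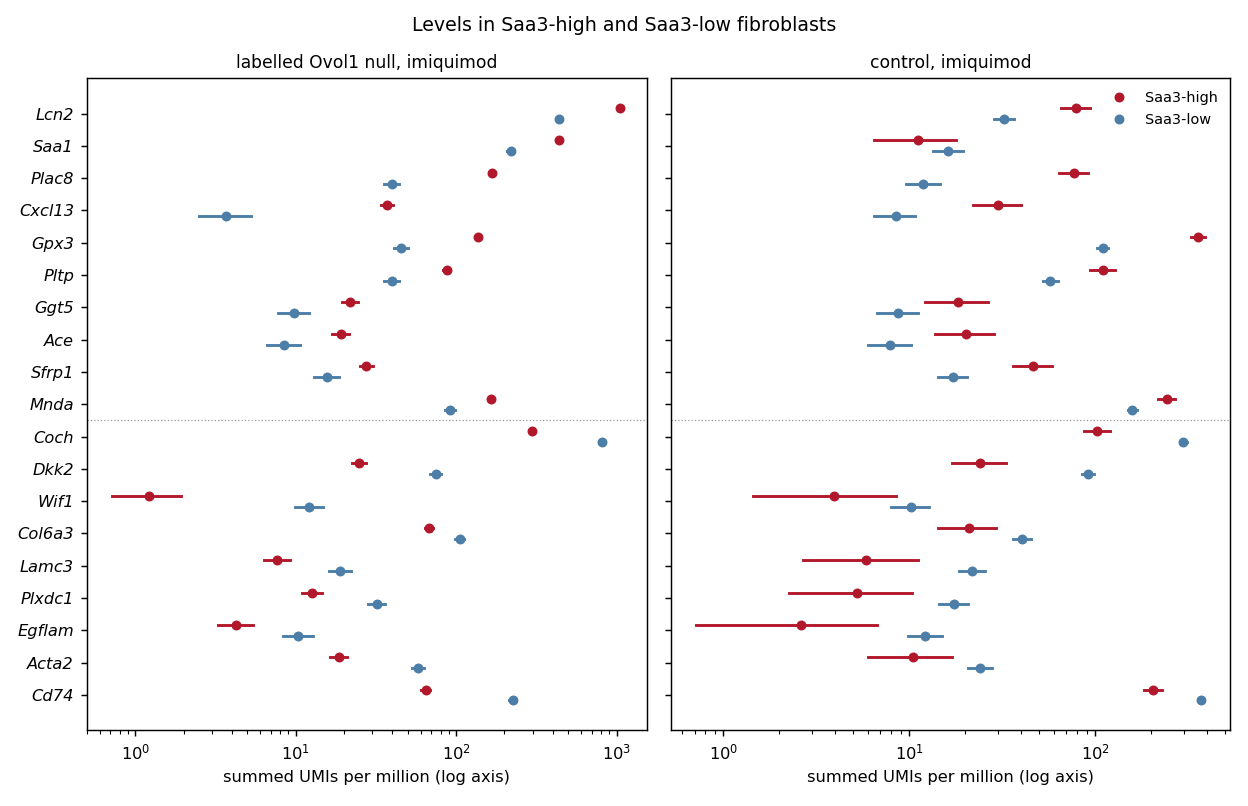
Summed UMIs per 1000000 (x axis, log scale) of named genes in Saa3-high (red, upper point) and Saa3-low (blue, lower point) fibroblasts of the labelled Ovol1 null imiquimod (left) and control imiquimod library (right); lines are exact Poisson 95% intervals of counting error. Above the dotted line Lcn2 to Mnda were higher in Saa3-high cells of both libraries except Saa1, which was 11.1 against 16.2 CPM in the control library; below it Coch to Cd74 were lower in both.

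Genes lower in Saa3-high cells of both libraries included the Coch, Dkk2 and Wif1 group. Coch, an extracellular matrix protein best known from the inner ear, was 299 CPM (290 to 308) in Saa3-high against 811 CPM (792 to 831) in Saa3-low cells labelled null, and 103 CPM (87.6 to 120) against 299 CPM (286 to 311) in control cells. Dkk2, a secreted regulator of Wnt signalling, was 24.8 against 74.5 CPM and 24.1 against 91.6 CPM, or 3.01-fold (2.64 to 3.43) and 3.79-fold (2.72 to 5.43) lower. Wif1, which binds Wnt proteins, was 1.21 against 12.1 CPM and 3.91 against 10.2 CPM. A Wif1 UMI was seen in 0.884% against 2.98% of cells labelled null and 1.25% against 2.93% of control cells. A single Saa3-low cell gave 32 of its 102 UMIs labelled null. The 3 genes form 1 of the 4 fibroblast subset lists used here, in which Col11a1 was not measured. In the untreated libraries Coch stood at 40.7 CPM (labelled null) and 44.7 CPM (control), below every imiquimod class, while Wif1 stood at 27.7 and 38.8 CPM, above each of them. In the 7 Saa3-high and 37 Saa3-low control cells with no keratinocyte gene the log2 ratio of Coch turned to 2.01.

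Other genes lower in both libraries had varied roles. Lamc3, a laminin chain, was 7.68 against 18.9 CPM and 5.87 against 21.8 CPM. Egflam, a pikachurin that binds dystroglycan, was 4.24 against 10.4 and 2.61 against 12.2 CPM. Col6a3, a chain of the microfibrillar collagen VI, was 67.7 against 105 and 20.9 against 40.6 CPM, and Col23a1, a transmembrane collagen, 31.4 against 50.8 and 3.26 against 12.99 CPM. Plxdc1, a receptor found on tumour endothelium, was 12.7 against 32.0 and 5.22 against 17.4 CPM. Nox4, a hydrogen peroxide-making oxidase, was 1.48 against 4.88 and 1.96 against 8.03 CPM. Fmod, a collagen-binding proteoglycan, had 4 UMIs in Saa3-high against 65 in Saa3-low cells labelled null and 0 against 32 in control cells. It was a signal of rare cells, seen in 11 Saa3-low cells (1.03%) labelled null and 7 (0.437%) in the control library. Single Saa3-low cells gave 34 of the 65 and 13 of the 32 UMIs.

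Contractile genes were lower too but rested on few cells. Acta2 was 18.6 against 57.8 CPM and 10.4 against 24.0 CPM, and Tagln 7.88 against 33.8 CPM and 3.91 against 12.3 CPM. Single Saa3-low cells gave 140 of the 486 Acta2 UMIs of the labelled-null class and 70 of the 179 of the control class. Without the richest cell in each class the control log2 ratio of Acta2 was -0.63, against -1.16 with it, and no longer past the rule. With immune-marker cells left out the labelled-null one was -0.02. The share of cells with an Acta2 UMI was 6.07% against 6.34% labelled null and 4.70% against 3.12% in control cells. Of the 8 mural markers, 4 were lower labelled null (Rgs5, Notch3, Mylk and Mcam) and 1 higher (Abcc9), with a median log2 ratio of -0.64, and of 6 endothelial markers measured there 4 were lower (Pecam1, Flt1, Emcn and Egfl7) and 1 higher (Cldn5), with a median of -2.04. In the control library 0 of 5 mural markers measured were higher or lower, and 1 of 4 endothelial ones (Cldn5) was lower. Of all measured genes 1.15% were higher and 5.15% lower labelled null, and 0.998% and 3.83% in the control library. The part of mural and endothelial transcripts in the contractile difference was not tested. Of the 15 genes of the wound matrix list, 12 and 10 were measured. Acta2, Tagln, Ctgf and Spp1 were lower in both libraries and Cthrc1 was higher in both.

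Type I interferon-stimulated genes did not separate the classes. Of 20 type I interferon-stimulated genes, all measured in both libraries, 1 was higher in labelled-null and 1 lower in control Saa3-high cells, and both were Rsad2. Their median log2 ratio was -0.07 in the labelled-null and -0.04 in the control library, beside -0.11 and -0.09 over all genes. Isg15, a ubiquitin-like modifier, was 390 against 392 CPM and 144 against 157 CPM; Irf7, the factor that amplifies interferon production, was 615 against 655 CPM and 419 against 337 CPM. The summed level of the list was 3588 CPM in Saa3-high and 3608 CPM in Saa3-low cells labelled null, and 3138 and 2788 CPM in control cells. Untreated gate fibroblasts held 268 CPM (labelled null) and 299 CPM (control). Both classes of the imiquimod libraries were thus above the untreated fibroblasts in this sum, and 19 of the 20 passed the rule in neither library. The list of interferon-gamma and class I genes gave medians of -0.0044 and 0.0027, with 0 of 22 measured higher and 1 lower (Irf8) in each library.

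The listed targets of NF-kB and IL-17 signalling did not separate them either. Of 18 and 16 measured, 0 were higher in either library and 1 was lower in each (Csf3 labelled null, Zc3h12a in the control library), with medians of -0.08 and 0.12. This holds for that list only. Saa3, Lcn2 and Saa1, on which the same routes act, are counted in other lists, and Saa3 and Lcn2 were higher in both libraries. Nfkbia, the inhibitor that NF-kB itself induces, was 1029 against 1104 CPM (labelled null) and 471 against 471 CPM (control). Cebpb was 828 against 847 and 799 against 724 CPM, and Tnfaip6 1178 against 1120 and 217 against 201 CPM. Il6 stood at 93.0 against 101 CPM and 28.7 against 22.8 CPM. For Nfkbia, Tnfaip6 and Il6 both classes of the labelled-null library lay above both classes of the control library. The receptors for cytokines and innate ligands (18 measured) and the JAK-STAT feedback genes (8 measured) held 0 genes higher or lower in either library.

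Chemokines other than Cxcl13 were uneven. Cxcl12, which retains leukocytes through CXCR4, was 412 against 281 CPM labelled null (below the size set) and 267 against 150 CPM in control cells, where it passed it. Cxcl9, the interferon-gamma-induced ligand of CXCR3, was 73.6 against 40.9 CPM labelled null but 42.4 against 58.2 CPM in control cells. The monocyte chemokine Ccl2 was 1163 against 990 CPM and 202 against 155 CPM. In all, 2 of 16 measured were higher (Cxcl9 and Cxcl13) and 2 lower (Cxcl16 and Ccl5) labelled null, and 3 of 15 were higher (Cxcl1, Cxcl12 and Cxcl13) and 0 lower in control cells. Complement genes had median log2 ratios of 0.25 and 0.40. C3 was 241 against 183 and 476 against 321 CPM, Cfb 283 against 232 and 202 against 122 CPM, and C4b 129 against 84.9 and 217 against 148 CPM. Among 13 measured, 1 was higher (C4b) and 1 lower in the labelled-null library. Among 11, 2 were higher (Cfb and Clu) and 0 lower in the control library. Beside these chemokine and complement counts, 1.15% of all measured genes were higher and 5.15% lower labelled null. In the control library these shares were 0.998% and 3.83%.

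Structural collagens were alike between the classes in the labelled-null library. Col1a1 was 7972 against 7736 CPM there and 5904 against 7045 CPM in control cells, with 30148.5 CPM (labelled null) and 37692 CPM (control) in untreated gate fibroblasts. Col3a1 was 4004 against 4205 CPM and 2295 against 3404 CPM. The list of 20 collagen and matrix genes had medians of -0.06 and -0.26, with Col14a1 higher and Col6a3 lower in both libraries. Col6a2 was also lower labelled null and Col5a1 in the control library. Lum, a gate gene, was 3177 against 2874 CPM and 3306 against 2838 CPM. Immediate early and heat shock genes, which respond to tissue dissociation, had medians of 0.01 and 0.0033 over 18 genes, with 1 (Hspb1) lower labelled null.

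**Figure D3:**
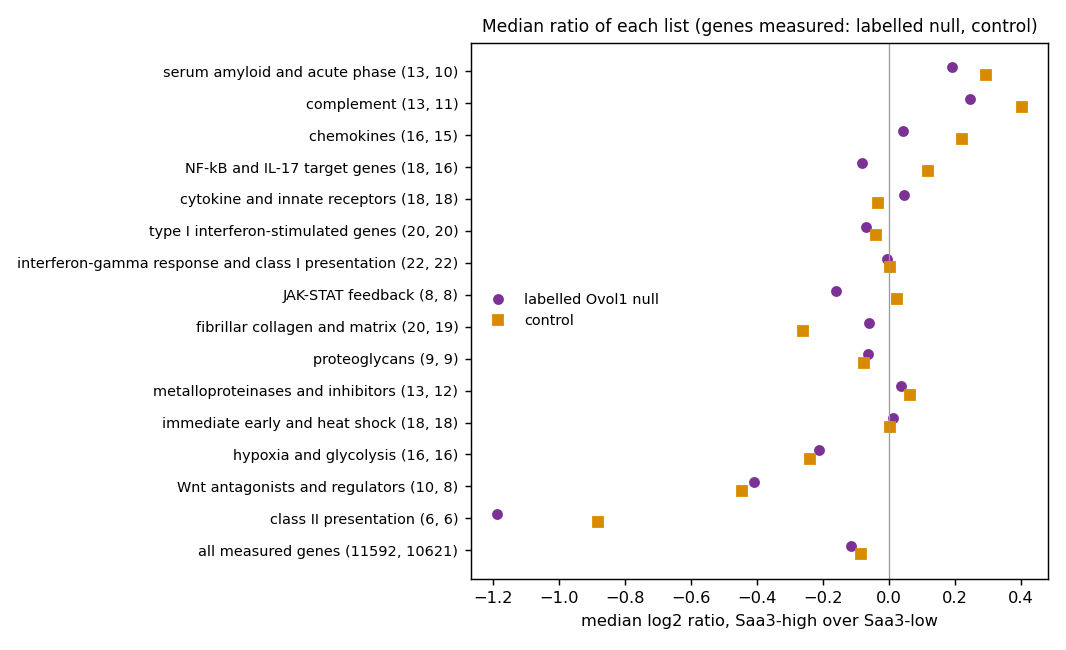
Median log2 ratio of Saa3-high over Saa3-low fibroblasts (x axis) for gene lists (y axis, with the number of genes measured in the labelled Ovol1 null and control imiquimod library), as purple circles for the labelled-null and orange squares for the control library. The type I interferon list lies at -0.07 and -0.04, class II presentation lies lowest of the lists plotted at -1.19 and -0.88, and all measured genes lie at -0.11 and -0.09.

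Markers of other cells varied in level, and some were lower in Saa3-high cells. The summed level of 12 macrophage or monocyte markers was 93.0 CPM in Saa3-high against 125 CPM in Saa3-low cells labelled null, and 145 against 143 CPM in control cells, with none at 0. Of the 10 measured in each, 0 were higher and 5 lower labelled null, and 1 was higher and 1 lower in the control library. Over all measured genes 5.15% were lower labelled null. In the control library 0.998% were higher and 3.83% lower. Ptprc, the pan-leukocyte marker, was 0.808 against 1.67 CPM and 1.30 against 3.75 CPM. The 10 neutrophil markers, S100a8 and S100a9 among them, summed to 274 against 323 CPM and 14.4 against 17.002 CPM. Retnlg and Ngp were at 0 in Saa3-high cells labelled null and 7 markers at 0 in control ones. The T or NK cell markers, Thy1 among them, summed to 585 against 724 and 175 against 237 CPM. In untreated gate fibroblasts they summed to 486 CPM (labelled null) and 414 CPM (control). Which member carried that sum is not given here, so it is not read as T or NK cells. The 9 endothelial markers summed to 10.6 against 25.9 and 16.3 against 22.5 CPM. The 8 mural markers summed to 108 against 101 and 102 against 77.4 CPM, most of it Kcnj8 (80.03 against 57.8 and 78.9 against 54.9 CPM). The 8 keratinocyte gate genes summed to 494 against 484 CPM labelled null and 906 against 988 CPM in control cells. Called doublets were 15 of 1697 and 3 of 319 Saa3-high cells.

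Class II antigen presentation genes were lower in Saa3-high cells by summed level, with 5 of 6 measured in the labelled-null and 3 of 6 in the control library. Of all measured genes 5.15% and 3.83% were lower. Cd74, the invariant chain, was 64.6 against 225 CPM and 206 against 373 CPM, and H2-Aa 43.0 against 129 CPM and 142 against 235 CPM. Keratinocyte-gate cells held 214 and 243 CPM of Cd74. The share of cells with a UMI was not lower to match: it was 11.8% against 12.0% labelled null and 25.1% against 24.4% in control cells for Cd74, 8.66% against 8.01% and 21.3% against 15.5% for H2-Aa, and 12.4% against 11.4% and 18.8% against 17.8% for H2-Ab1. One Saa3-low cell alone gave 777 of the 1890 Cd74 UMIs labelled null. Cells with a UMI of any of 8 immune markers (Ptprc, Tyrobp, Fcer1g, Lyz2, Cd74, Cd3d, Cd3e and S100a8) were also left out. This leaves 419 Saa3-high and 316 Saa3-low cells labelled null and 199 and 1025 control cells. The log2 ratio of H2-Aa was then -0.08 labelled null and turned to 0.67 in the control library. Since Cd74 is itself a class II presentation gene, this choice removes cells with class II transcripts, so nothing is concluded from these 2 values. Against the 228 labelled-null cells with no Saa3 UMI, the log2 ratio of Cd74 turned to 2.0 and that of H2-Aa to 2.72. Immune-marker UMIs were seen in 75.3% of Saa3-high against 70.5% of Saa3-low cells labelled null, and in 37.6% against 36.1% of control cells. Their part in the class II difference was not tested.

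Within the Saa3-high class of the labelled-null library, Plac8, Gpx3 and Dkk2 also graded along ranges of Saa3. Lcn2 did so from 50 per 10000 upwards. Lcn2 there was 715 CPM in cells with 20 to 50 Saa3 UMIs per 10000, 606 CPM at 50 to 100, 896 CPM at 100 to 200, 975.3 CPM at 200 to 400 and 1583 CPM at 400 and over. Plac8 was 37.8, 68.8, 105, 225 and 258 CPM over the same ranges. Gpx3 was 46.0, 65.6, 108, 158 and 210 CPM, and Dkk2 42.5, 30.3, 23.8, 22.6 and 17.8 CPM. Near the threshold Plac8 and Gpx3 were thus at the level of the Saa3-low class, and they were highest in cells richest in Saa3. The interferon gene Isg15 stood between 373 and 412 CPM over these ranges, and Serpina3n between 3022 and 3132 CPM.

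In the control library Lcn2 stood above its level at 20 to 50 in cells at 100 and over, and Plac8 did not. Lcn2 was 61.7 CPM (43.2 to 85.4) at 20 to 50, 67.7 CPM (47.4 to 93.7) at 50 to 100 and 117.5 CPM (86.9 to 155) in the 94 cells at 100 and over, where the interval overlapped that at 50 to 100. Within these it was 153 CPM at 100 to 200 and 60.9 CPM at 200 to 400, the second from 8 UMIs. Plac8 was 78.8 CPM (57.7 to 105) at 20 to 50, 111 CPM (84.4 to 143) at 50 to 100 and 31.2 CPM (16.6 to 53.3) at 100 and over. Gpx3 was 303, 412, 417 and 175 CPM at 20 to 50, 50 to 100, 100 to 200 and 200 to 400. Only 29 control cells lay between 200 and 400 and 7 above, so the upper ranges are thin. Cfb, the complement factor B gene, was 175, 201, 220 and 244 CPM over the same ranges, against 117 CPM in cells without Saa3.

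**Figure D4:**
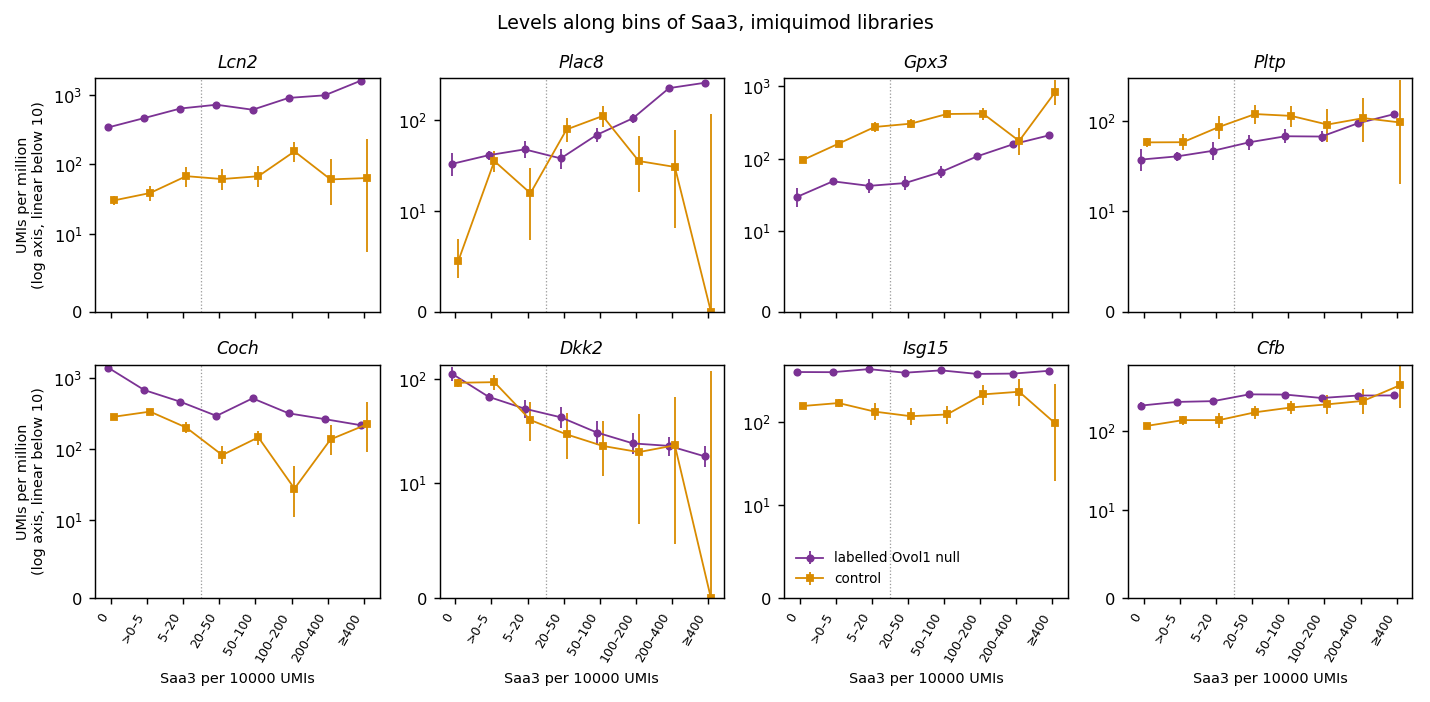
Summed UMIs per 1000000 (y axis, log scale, linear below 10) of 8 genes in fibroblasts ranked into ranges of Saa3 per 10000 UMIs (x axis, low to high), for the labelled Ovol1 null (purple circles) and control (orange squares) imiquimod library; bars are exact Poisson 95% intervals and the dotted line is the threshold of 20. In labelled-null cells Lcn2, Plac8, Gpx3 and Pltp are highest at 400 and over, Coch and Dkk2 are lowest there, and Isg15 stays between 373 and 426 CPM.

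Saa3-high cells were found among the cells of all 4 subset lists, at unequal shares. Each gate fibroblast was put with the list that led its UMIs, or with none, as 324 of 3007 labelled-null and 448 of 2052 control cells were (10.8% and 21.8%). The lists are named by their first genes. The Gpx3 Cxcl12 list also holds Gdf10, Col15a1 and Inmt, of which Gdf10 and Inmt had 0 UMIs in labelled-null Saa3-high cells. Of its 5 genes 3 were measured in each library. In Saa3-high cells 1 was higher and 0 lower labelled null, and 2 were higher and 1 lower in the control library. Of cells led by Gpx3 and Cxcl12, 70.1% (67.2 to 72.8%, of 1039) were Saa3-high labelled null and 24.5% (20.7 to 28.7%, of 469) in the control library. Of cells led by Coch, Dkk2 and Wif1, 43.6% (39.9 to 47.3%, of 713) and 8.78% (6.23 to 11.9%, of 410) were. Those led by Pi16 and Dpp4, marks of an adventitial and fascial fibroblast, gave 53.8% and 13.04%, and those led by Crabp1, Apcdd1 and Col23a1 gave 50.6% and 12.8%. Of cells that no list led, 54.3% and 16.5% were Saa3-high. The order of the Gpx3 Cxcl12 cells first and the Coch Dkk2 Wif1 cells last was the same in both libraries, and those 2 shares did not overlap in their counting intervals in either. The groups rest in part on UMIs of Gpx3, Coch, Dkk2 and Wif1, which differed between the classes above. The order thus restates those differences in part. The middle groups overlapped each other. As a share of the class, Gpx3 Cxcl12 cells were 42.9% of Saa3-high against 23.8% of Saa3-low cells labelled null, and 36.1% against 19.3% in the control library.

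**Figure D5:**
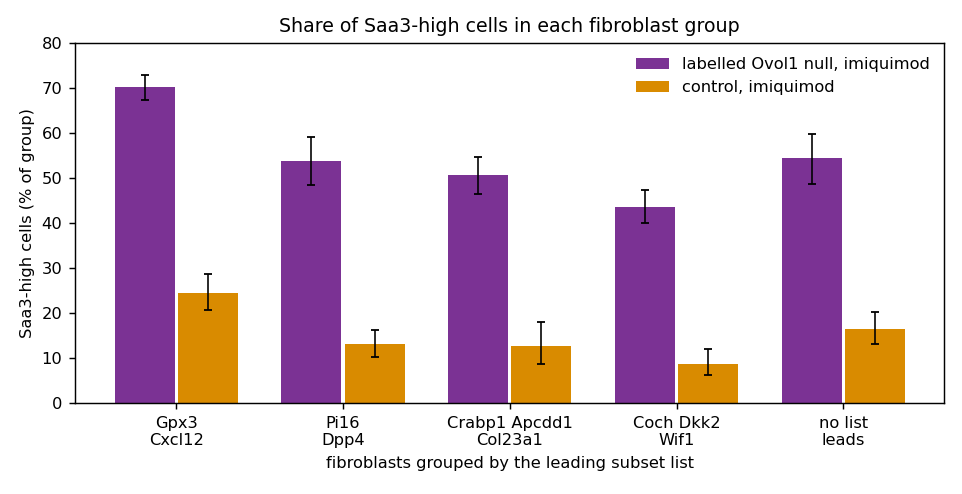
Share of Saa3-high cells (y axis, percent) among gate fibroblasts of each subset list (x axis) in the labelled Ovol1 null (purple) and control (orange) imiquimod library, with exact 95% binomial intervals of counting error. The Gpx3 Cxcl12 group holds most (70.1% and 24.5%) and the Coch Dkk2 Wif1 group fewest (43.6% and 8.78%).

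Within subsets Lcn2 was higher in Saa3-high cells of all 4 lists labelled null, and in the control library in Gpx3 Cxcl12 and Coch Dkk2 Wif1 cells, the level intervals of the classes not overlapping in these cases. Among Gpx3 Cxcl12 cells Lcn2 was 1073 CPM in Saa3-high against 461 CPM in Saa3-low cells labelled null, and 128 against 25.3 CPM in control cells. Among Coch Dkk2 Wif1 cells it was 1193 against 461 CPM and 153 against 50.7 CPM, and among Pi16 Dpp4 cells 984 against 266 CPM labelled null. The intervals overlapped in control Pi16 Dpp4 cells, at 26.4 CPM (12.1 to 50.03) against 14.1 CPM (9.46 to 20.3). They also overlapped in control Crabp1 cells, at 30.1 CPM (8.199 to 77.0) against 18.9 CPM (10.8 to 30.7), with 4 UMIs in the Saa3-high class, and in control cells that no list led it was 25.6 against 51.7 CPM. Plac8 stood at 316 CPM in Saa3-high against 88.3 CPM in Saa3-low Gpx3 Cxcl12 cells labelled null and at 193 against 38.6 CPM in control ones. In Pi16 Dpp4 cells it was 50.4 against 14.1 CPM and 17.6 against 5.36 CPM. Of the 118 Plac8 UMIs of the control Saa3-high class, 110 were in Gpx3 Cxcl12 cells. With the Saa3-low class weighted to the subset make-up of the Saa3-high class, 11 genes were higher in both libraries, 10 of them among the 20 above, and 42 of the 68 lower ones remained.

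Between the libraries, Saa3-high cells labelled null differed from control Saa3-high cells in many genes: 1136 of 11006 measured (10.3%) were higher and 1706 (15.5%) lower. Treatment response, genotype label, depth and free RNA of the 2 libraries cannot be told apart here. Timp1, an inhibitor of metalloproteinases, was 841 CPM in labelled-null against 86.1 CPM in control Saa3-high cells, Tnfrsf12a, the receptor of TWEAK, 134 against 13.05 CPM and Fst, which binds activin, 162 against 16.96 CPM. Has1, a hyaluronan synthase, was 79.4 against 13.05 CPM. Saa3-low cells showed the same: Timp1 was 658 in labelled-null against 77.0 CPM in control Saa3-low cells, Tnfrsf12a 123 against 21.3, Fst 208 against 29.2 and Has1 58.6 against 14.6 CPM. These contrasts thus went with the library in both classes.

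Of the genes lower in labelled-null Saa3-high cells, some were abundant in keratinocytes and some were not. Krt15, a basal keratin, was 20.3 in labelled-null against 319 CPM in control Saa3-high cells, and 831 against 5060 CPM in keratinocyte-gate cells of the same libraries. Krt77, Fcgbp and Clca3a2 ran the same way, at 78.8 against 533, 176 against 663 and 301 against 1387 CPM in keratinocytes. Gpr1, a receptor for chemerin, was 5.52 against 128 CPM, Arl4d, a small GTPase, 6.67 against 134 CPM, and Trp53inp1, a p53-induced regulator of autophagy, 7.95 against 95.3 CPM, with at most 33.8 CPM in the keratinocytes of either library. In Saa3-low cells these 3 genes stood at 5.59 against 124, 5.24 against 132 and 9.04 against 111 CPM. Ccl4, a chemokine of activated leukocytes, differed between the classes: 6.40 against 82.9 CPM in Saa3-high but 33.6 against 17.9 CPM in Saa3-low cells. A single cell gave most of the 127 Ccl4 UMIs of the control Saa3-high class.

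By list, and beside 10.3% of all measured genes higher and 15.5% lower, the labelled-null Saa3-high cells stood above control ones in 11 of 17 measured NF-kB and IL-17 targets and below in 0 (median log2 ratio 0.92, beside -0.11 over all genes). Hypoxia and glycolysis genes were higher in 8 of 16 and lower in 2 (median 0.64). Complement genes were higher in 0 and lower in 6 of 13 (median -0.62), and glucocorticoid-induced and metallothionein genes were lower in 6 of 9 (median -0.79). Type I interferon-stimulated genes were higher in 1 and lower in 5 of 20 (median -0.23), and with so few genes nothing is read from that count. The medians in Saa3-low cells were 1.11, 0.72, -0.40, -0.78 and -0.16 for the same lists. Markers of other cells moved with the library too: the neutrophil markers summed to 274 CPM in labelled-null and 14.4 CPM in control Saa3-high cells, and the 8 keratinocyte gate genes to 494 and 906 CPM. The neutrophil list includes S100a8 and S100a9, while its members Retnlg and Ngp had 0 UMIs in labelled-null Saa3-high cells, so its sum is not read as neutrophils. The part of other cells in these contrasts was not tested.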

How the data were processed

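The authors deposited UMI counts per gene and cell of 1 aggregated matrix, made with Cell Ranger 2.1.0 on mm10, per the submitters' processing notes; whether aggregation thinned the libraries to equal depth, and the annotation release, are not given in the sources used here. Cells were kept from 200 genes upwards and with mitochondrial UMIs at 10% or less, 5671 (labelled-null imiquimod), 5670 (control imiquimod), 5292 (labelled-null untreated) and 6186 (control untreated) of 23455 barcodes, with totals of 57.2, 31.0, 33.1 and 38.8 times 1000000 UMIs over all barcodes of those libraries. The members and all gene lists were chosen with earlier results of these data known. Within each library the raw UMIs of a class were added up and divided by the class total (CPM). Ratios have exact conditional binomial 95% intervals, CPM exact Poisson ones and shares exact Clopper-Pearson ones. A gene with at least 20 UMIs over both classes was called at a ratio of at least 1.5 with its interval on one side of 1; 0.5 UMIs were added to each count for log2 ratios only. With 1 library per group there is no test across samples. A count model (edgeR) was used for TMM scaling alone.

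Genes were named as follows: Saa3, Lcn2 and Saa1; up to 4 members of each list called the same way in both imiquimod libraries, and those called in opposite ways; outside the lists the 10 highest and 10 lowest called in both; and between the libraries the 10 highest and 10 lowest with at least 20 UMIs in each. Other list members, among them Isg15, Irf7, Nfkbia, Cebpb, Tnfaip6, Il6, Cxcl9, Cxcl12, Ccl2, C3, C4b, Cfb, Col1a1, Col3a1, Serpina3n, Lbp, Ptx3 and Steap4, were named after their values were seen. Some genes that the rule names are not reported here. Of 436 list genes, 6 were not matched in the table. Each gate fibroblast was assigned to the subset list that led its UMIs, or to none. Scrublet (scanpy 1.11.5, expected rate 0.05) marked doublets, which were kept; it marked 6 of 5292 cells (0.113%) in labelled-null untreated and so did not work there. Alternatives were a Saa3 threshold of 50, Saa3-low cells with 0 UMIs, stricter cell and gate filters, thinning to 1400 UMIs, TMM, a minimum of 100 UMIs, leaving out doublets, shallow cells or cells with an immune UMI, subset weighting and, chosen after seeing the data, leaving out the richest cell per gene. The calling step was tested on simulated counts. Promoter windows are from RefSeq (GRCm38.p6) and positions from GENCODE M21. Tools were python 3.11.15, numpy 2.4.6, pandas 2.3.3, scipy 1.17.1, matplotlib 3.10.9, R 4.3.3 and edgeR 4.0.16.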

Additional observations from a re-analysis of the deposited data

Results flagged for a closer look

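Of 10466 genes measured in both imiquimod libraries, 13 were higher in Saa3-high cells of one and lower in those of the other, and the difference between the libraries was not tested. Those named here are Rsad2, Igfbp3, Cldn5 and Ccl4. Rsad2, an interferon-induced antiviral enzyme, had a log2 ratio of Saa3-high over Saa3-low of 0.63 in the labelled-null library (13.3 against 8.57 CPM) and -0.74 in the control library (13.7 against 23.3 CPM). Igfbp3, a carrier of insulin-like growth factors, had -0.80 in the labelled-null library (26.7 against 46.3 CPM) and 0.63 in the control library (183 against 118 CPM). Single Saa3-low cells gave 144 of its 389 UMIs labelled null and 159 of its 883 in the control library. The share of cells with an Igfbp3 UMI was higher in Saa3-high cells of both libraries. It was 7.01% against 4.75% labelled null and 24.5% against 13.9% in the control library, so no reversal is read from the sums. Cldn5, a tight junction protein of endothelium, had 1.73 labelled null, from 20 Saa3-high and 3 Saa3-low UMIs, and -1.73 in the control library, from 2 and 40 UMIs. Ccl4, a chemokine of activated leukocytes, had -2.39 labelled null (6.40 against 33.6 CPM) and 2.21 in the control library (82.9 against 17.9 CPM), where 1 Saa3-high cell gave 80 of 127 UMIs.

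Saa3 also passed 20 per 10000 in cells outside the comparison. In untreated skin 8 gate fibroblasts labelled null and 5 control ones did, at 22.2 to 417 and at 29.3 to 89.9 per 10000. All 5 control cells were led by Gpx3 and Cxcl12, as were 4 of the 8 labelled-null ones. Outside the fibroblast gate 170 of 2664 cells (6.38%) passed in labelled-null imiquimod and 45 of 3618 (1.24%) in control imiquimod, among them 18 of 124 and 4 of 77 cells with macrophage or monocyte markers.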

How the results depend on the processing

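No paired analysis was possible because each group is 1 library. With 1 library per group, and 319 control Saa3-high cells at a median of 4788 UMIs, depth limits low genes in the control library most. Of the values for named genes and lists, 1275 kept direction and side of the rule, 120 no longer passed it, 1 newly passed it, 41 medians moved and 19 turned direction; the cause was not tested. With at least 6 fibroblast genes and no keratinocyte gene (59 and 49, 7 and 37 cells), 64 genes were higher and 243 lower labelled null, 27 and 37 in the control library, and 3 and 3 in both, and the labelled-null share of Saa3-high cells was 46.1%; log2 ratios turned for Gpx3 (-0.47 labelled null, -2.39 control) and, in the control library, Ogn (-0.56), Igfbp3 (-1.53) and Coch (2.01). Thinning to 1400 UMIs left 376 lower labelled null, 239 lower in the control library, and 10 higher and 38 lower in both. These totals are not all the same genes. Of the 20 higher and 68 lower in both, 1 and 0 stayed called under the strictest gate and 8 and 16 after thinning. With immune-UMI cells left out 12 and 23 stayed. Under the other alternatives 10 to 20 and 36 to 63 stayed. TMM gave 215 higher labelled null, 195 higher and 244 lower in the control library, and 32 higher in both. A minimum of 100 UMIs gave 78 higher and 269 lower, 54 and 265, and 13 and 42 in both. Subset weighting gave 11 higher in both. Without the richest cell, 64 were higher and 652 lower in the control library. At 50 per 10000 the shares were 49.5% labelled null and 9.503% control. Against labelled-null cells with 0 Saa3 UMIs, H2-Ab1 (1.36), Cd74 (2.0), H2-Aa (2.72), Fabp4 (0.10), Igfbp3 (0.72), Tyrobp (1.54), H2-M2 (0.62) and Ccl4 (0.77) turned. With immune-UMI cells left out, Rsad2 (-0.21), H2-Ab1 (0.58), Col14a1 (-0.45), Fabp4 (2.09) and Igfbp3 (0.58) turned labelled null and H2-Aa (0.67) in the control library. Cd74 is among those immune markers, so the class II values of that setting follow in part from the choice of cells. Lcn2 lay between 1.25 and 1.65 labelled null and between 1.17 and 1.79 in the control library under the alternatives that gave a value; the strictest gate (7 and 37 cells) gave none for it in the control library.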

Other observations

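Il33, an alarmin of barrier tissues, was 63.5 CPM in Saa3-high against 31.5 CPM in Saa3-low cells labelled null and 8.48 against 5.76 CPM in control cells. Igf1, a growth factor that fibroblasts secrete, was 109.5 against 65.8 CPM labelled null and 65.2 against 47.8 CPM in control cells. Hpgd, which breaks down prostaglandins, was 111 against 72.6 CPM and 102 against 90.8 CPM. All 3 were called in the labelled-null library alone, and the difference between the libraries was not tested. These genes were chosen after their values were seen.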
